A study of Mus musculus with 87 samples.

Results

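The mitochondrial genome transcripts are the products of all genes that the mouse annotation places on the mitochondrial chromosome. The members were chosen by position alone, as every row of the gene tables on chrM, and the rule uses no measured value. They are 37 of the 55487 genes in each table: 13 protein genes, 2 rRNA genes and 22 tRNA genes. They were followed through 41 RNA-seq libraries in 5 experiments on mouse embryonic stem cells (mESCs) and preimplantation embryos, in a study of whether the homeobox gene Obox4 supports zygotic genome activation when the homeobox gene Dux is lost.

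The first experiment used mESCs of one single-cell clone that carried a doxycycline-driven, 3xFLAG-tagged Obox4 transgene (TRE-3xFLAG-Obox4), at 0, 12 and 48 h of doxycycline with 3 libraries each. The second used 2-cell (2C) embryos from B6D2F1 (BDF1) mice aged 8 weeks, whose male pronuclei were injected with antisense oligonucleotides (ASOs) at the zygote stage. The ASOs were 40 µM scramble, 20 µM anti-Obox4 (Obox4 KD), 20 µM anti-Dux (Dux KD), a 40 µM mixture of both (double KD), or that mixture with 100 ng/µL of codon-optimised Obox4 mRNA (rescue). Each 2C library pooled 30 embryos collected 20 h after injection, with 2 libraries per group. The third compared scramble and double KD morulae, with 2 libraries each. The fourth used blastomeres of B6D2F1 2C-embryos that all carried a Dux knockout, with Obox4 WT, Het or KO, 2 libraries each. The fifth used mESCs of 4 genotypes, namely WT, Obox4 KO, Dux KO and both knockouts (double KO), all kept in pladienolide B (PlaB), a splicing inhibitor that moves mESCs toward a totipotent-like state, with 3 libraries each. Every knockout line was a single-cell clone, and the double KO line was made from the Obox4 KO line, so a clone and its genotype cannot be told apart. Library totals ran from 22470332 to 31504967 gene counts in the induced mESCs, 26148176 to 69461986 in 2C-embryos, 53573946 to 104864947 in morulae, 26447954.79 to 40005046.87 in blastomeres and 14283083 to 48837123 in mESCs in PlaB.

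Mitochondrial DNA is transcribed from both strands as long precursor RNAs, and the tRNAs that lie between most of the genes are cut out by nuclear-encoded enzymes, which frees the mRNAs and rRNAs. The protein genes encode core subunits of the respiratory chain and ATP synthase, the rRNAs form the mitochondrial ribosome, and the tRNAs translate the messages. In the early embryo, mitochondria and their transcripts are inherited from the oocyte, and mitochondrial DNA replication is largely silent until later preimplantation stages.

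The annotation placed the 37 genes on the 16299 bases of chrM in GRCm38.p6, 28 on the plus strand and 9 on the minus strand. The 9 are 8 tRNA genes and mt-Nd6, which encodes a subunit of complex I. The genes are packed end to end with few or no bases between them, and some overlap. mt-Atp8 and mt-Atp6, for instance, share 43 bases on one strand, and mt-Nd5 and mt-Nd6, on opposite strands, share 14.

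Copies of mitochondrial DNA in the nuclear genome set what these tables can show. A BLAST search of GRCm38.p6 found 8 nuclear copies of at least 100 aligned bases and 95% identity. The longest lies at chr1:24611535-24616188, is 99.936% identical over 4654 aligned bases, and holds 11 members wholly and 2 partly. An exact full-length nuclear copy existed for 14 members. In 4 of the 5 experiments the gene tables leave out any read that maps to more than 1 place, and a second table of genes and repeats splits such reads between their places.

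The tRNA genes printed below were called lower, by reads with a single place, in the rescue embryos described further on. When shared reads were split, mt-Tw and mt-Th were no longer called there. The sequences are set beside their closest nuclear copies, since a read with more than 1 place is left out of one table and split in the other. mt-Tw, the tryptophan tRNA at chrM:4950-5016 on the plus strand, is printed with its anticodon in capitals, and its nuclear copy at chr2:22589959-22590025 on the minus strand differs at no base.
mt-Tw: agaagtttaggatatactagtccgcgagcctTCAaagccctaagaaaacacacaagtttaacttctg
mt-Tw nuclear copy: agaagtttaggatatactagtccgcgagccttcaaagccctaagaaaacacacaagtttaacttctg

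mt-Th, the histidine tRNA at chrM:11546-11612 on the plus strand, likewise has an identical copy, at chr2:69355568-69355634 on the minus strand. The anticodon is in capitals.
mt-Th: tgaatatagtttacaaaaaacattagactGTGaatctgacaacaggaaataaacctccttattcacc
mt-Th nuclear copy: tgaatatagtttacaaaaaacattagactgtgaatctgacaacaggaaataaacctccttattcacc

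mt-Ts2, a serine tRNA at chrM:11613-11671 on the plus strand, starts at the base after mt-Th and has no such copy over its full length. The identical nuclear stretch that holds mt-Th, at chr2:69355538-69355666, also covers 50.85% of mt-Ts2. Its closest full-length nuclear match, at chr1:34752993-34753051 on the plus strand, differs at 8 bases, which are in capitals in the copy. In the gene itself the capitals mark the anticodon.
mt-Ts2: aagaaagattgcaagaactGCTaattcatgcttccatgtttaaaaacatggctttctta
mt-Ts2 nuclear copy: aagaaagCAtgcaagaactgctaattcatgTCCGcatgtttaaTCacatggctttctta

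mt-Tl2, a leucine tRNA at chrM:11671-11741 on the plus strand, overlaps mt-Ts2 by 1 base, and its closest copy at chr1:34753051-34753121 differs at 6 bases, again in capitals. mt-Tc, the cysteine tRNA at chrM:5192-5257 on the minus strand, is shown because it also stayed low in both tables, and its closest copy differs by 1 gap base.
mt-Tl2: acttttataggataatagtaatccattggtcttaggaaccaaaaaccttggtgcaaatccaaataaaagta
mt-Tl2 nuclear copy: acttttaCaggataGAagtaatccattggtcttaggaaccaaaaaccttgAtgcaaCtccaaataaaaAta
mt-Tc: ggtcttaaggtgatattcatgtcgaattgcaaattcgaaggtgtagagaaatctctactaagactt

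Mitochondrial genes took between 1.40% and 15.1% of a library's gene counts. The rRNAs made up most of this share except in mESCs in PlaB. Averaged over libraries, the protein genes held 0.599% of the gene counts in induced mESCs, 1.20% in 2C-embryos, 2.44% in morulae, 2.27% in blastomeres and 1.66% in mESCs in PlaB. The rRNA share was 12.9%, 7.89%, 9.99%, 5.79% and 1.45% in the same order. The tRNA share stayed under 0.1% in every library, and its means were 0.00155%, 0.0188%, 0.0242%, 0.0286% and 5.40e-04%. The study names one library kit for the cultured cells and another for the embryos, and the blastomere table was counted by a different rule. What sets the experiments apart was not tested.

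**Figure D1:**
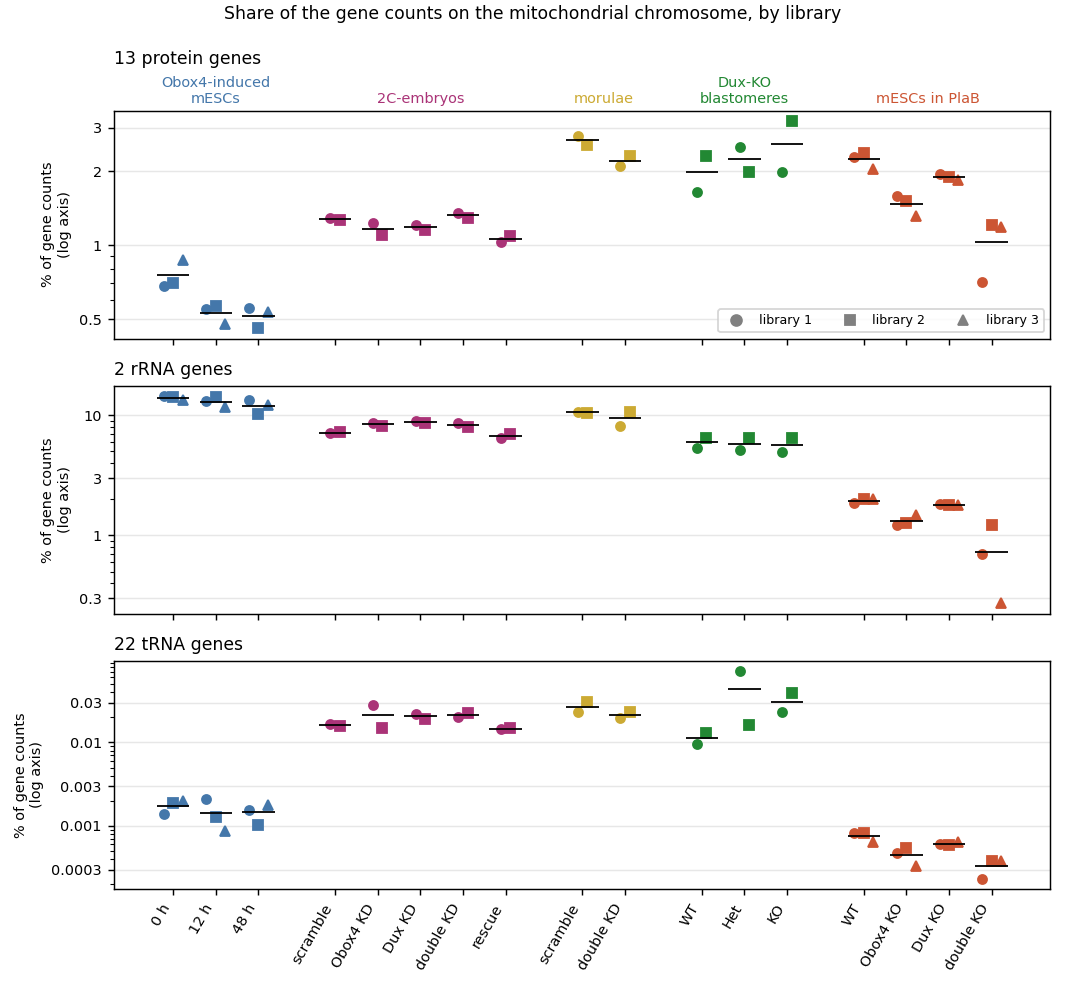
Share of the gene counts (y axis, percent, log axis) held by the 13 protein, 2 rRNA and 22 tRNA genes in each library (x axis, groups of the 5 experiments). Symbols mark the library number and horizontal lines the group means, and the double KO libraries in PlaB hold the lowest rRNA share, down to 0.271%.

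mt-Rnr2, the large-subunit rRNA, led every experiment when counts were scaled to library size as CPM, counts relative to one fixed library total, and divided by gene length. Its median was 78242 CPM per kb in induced mESCs, 36291 in 2C-embryos, 45546 in morulae, 26836 in blastomeres and 9949 in mESCs in PlaB. mt-Rnr1, the small-subunit rRNA, came next in all but the last, with 24655 CPM per kb in 2C-embryos. In mESCs in PlaB, mt-Rnr1 stood at 578 CPM per kb, below mt-Co1 (3492), mt-Nd1 (3428) and 5 other protein genes. There mt-Rnr2 made up 90.2% to 97.0% of rRNA counts, which overlaps the 77.3% to 93.7% of the induced mESCs. In the embryo libraries it made up 66.1% to 74.5%.

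Among the protein genes, mt-Cytb (complex III, 2758 CPM per kb), mt-Nd1 (complex I, 1744) and mt-Co1 (complex IV, 1444) were highest in 2C-embryos. In induced mESCs the order was mt-Co1 (3157 CPM per kb), mt-Nd1 (338) and mt-Cytb (128), and in morulae mt-Nd1 (4604) and mt-Cytb (4066) exceeded mt-Nd2 (3048). The libraries of one experiment span the gap between such neighbours in several cases, so the order of close members is a description only.

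The genes inside the long chr1 copy were nearly empty in the tables that leave out shared reads. mt-Co2, a complex IV subunit, had a median of 173 counts in the 2C gene table and 20085 in the table that splits shared reads. The medians of mt-Atp6, an ATP synthase subunit, were 239 and 44284, and those of mt-Co3 103.5 and 14078. The blastomere table splits shared reads, and there mt-Atp6 stood second among protein genes with 2672 CPM per kb. Low counts of mt-Co2, mt-Co3, mt-Atp6, mt-Atp8, mt-Nd3 and mt-Nd4l in the other 4 tables leave out shared reads and therefore do not give the levels of these transcripts. Where the reads that remain lie was not tested.

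The tRNA genes are 59 to 75 bases long, and whether their reads came from mature tRNAs or from longer precursors was not tested. mt-Tp, the proline tRNA on the minus strand, held 48.2% to 65.6% of tRNA counts in 2C-embryos, 43.7% to 64.7% in morulae and 22.5% to 39.0% in blastomeres. Its share was 9.76% to 21.9% in induced mESCs and 85.3% to 96.5% in mESCs in PlaB. In the last, 13 of the 22 tRNA genes were at 0 in every library, and only 2 had a count in each. In 2C-embryos none was at 0 in every library, and 15 had a count in each.

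Changes between groups were tested with the quasi-likelihood test of edgeR across all genes of a table, and called means a Benjamini-Hochberg adjusted p no larger than 0.01 together with a log2 fold change of 1 or more in size. Over the 14 comparisons, 375 tests of members were made, of which 16 were called lower and 0 higher. The calls fell in 4 comparisons. Where the libraries of 2 groups are said not to overlap, or to lie all below or above others, this is a description only. The share of all genes with such a separation was not counted, and groups held only 2 or 3 libraries. The p-values rest on a spread between libraries that was estimated over all groups of an experiment together and partly shared across genes. They do not measure the spread of the 2 groups compared alone. In bulk samples fewer cells of a type and less RNA per cell cannot be told apart.

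The rescue embryos, set against the double KD embryos, held the largest changes. Of the 32 members tested, 7 fell and none rose, where 4.37% of the 23085 genes tested were called in either direction and 3.27% were called lower. All 7 were tRNA genes. They lie in 2 stretches of the chromosome. mt-Tw, mt-Tn, mt-Tc and mt-Ty lie between mt-Nd2 and mt-Co1, together with mt-Ta, which was not called, and mt-Th, mt-Ts2 and mt-Tl2 lie next to each other between mt-Nd4 and mt-Nd5.

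mt-Tc had 407 and 208 counts in the 2 double KD libraries and 15 and 13 in the 2 rescue libraries. The scramble libraries had 264 and 169, the Obox4 KD libraries 157 and 112, and the Dux KD libraries 249 and 143. The rescue libraries lay below all 8 others although they were the deepest of the experiment. The log2 fold change against double KD was −5.03 (SE 0.273, edgeR adjusted p = 7.03e-09).

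mt-Ts2 had 5.16 and 5.04 CPM in double KD and 0.144 and 0.186 CPM in rescue, and the other 6 libraries ranged from 2.64 to 6.53 CPM. Its log2 fold change was −4.81 (SE 0.318, edgeR adjusted p = 4.39e-08). For mt-Tl2, the counts were 95 and 87 in double KD and 32 and 24 in rescue, a log2 fold change of −2.37 (SE 0.301, edgeR adjusted p = 1.98e-05). Neither gene overlapped between the groups.

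mt-Tn, the asparagine tRNA, had 139 and 87 counts in double KD and 1 and 4 in rescue (log2 fold change −6.00, SE 0.453, edgeR adjusted p = 1.74e-07). mt-Tw had 43 and 20 counts in double KD and 0 in both rescue libraries, which places it at least 35.5-fold lower when 3 counts over both libraries are taken as the floor. mt-Ty, the tyrosine tRNA, had 29 and 31 counts and then 0 in both, at least 33.8-fold lower by the same floor. mt-Th went from 111 and 92 counts to 0 and 1, a rescue to double KD ratio of 0.00292 with an exact 95% interval of 7.35e-05 to 0.0164 for counting error only. mt-Tw, mt-Ty and mt-Th passed the test with edgeR adjusted p of 4.24e-05, 3.53e-05 and 8.37e-08.

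Where reads with several places were kept and split, these 4 tRNAs were present in the rescue libraries. mt-Th had 791 and 651 split counts in double KD and 1036 and 945 in rescue, and its log2 fold change was −0.19 (edgeR adjusted p = 0.605). mt-Tn had 385 and 264 against 409 and 310 (log2 fold change −0.49, adjusted p = 0.0775). mt-Tw (−0.76, adjusted p = 0.131) and mt-Ty (−0.93, adjusted p = 0.0535) also missed the threshold. All 4 have an exact nuclear copy. mt-Te, the glutamate tRNA, has one too and was not called in either table (−0.88 and −0.77).

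The other 3 stayed low in the split table, where 5.51% of 21822 genes were called. mt-Tc had 468 and 245 split counts in double KD and 75 and 64 in rescue, with a log2 fold change of −2.96 (edgeR adjusted p = 2.03e-07). mt-Ts2 had 234 and 146 against 20 and 13 (−4.14, adjusted p = 8.09e-08), and mt-Tl2 changed by −2.38 (adjusted p = 1.96e-05). mt-Tr, the arginine tRNA inside the chr1 copy, was too low to be tested in the gene table and was called lower in the split table (−1.86, adjusted p = 5.23e-05). What sets mt-Tc, mt-Ts2, mt-Tl2 and mt-Tr apart from their neighbours was not tested.

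**Figure D2:**
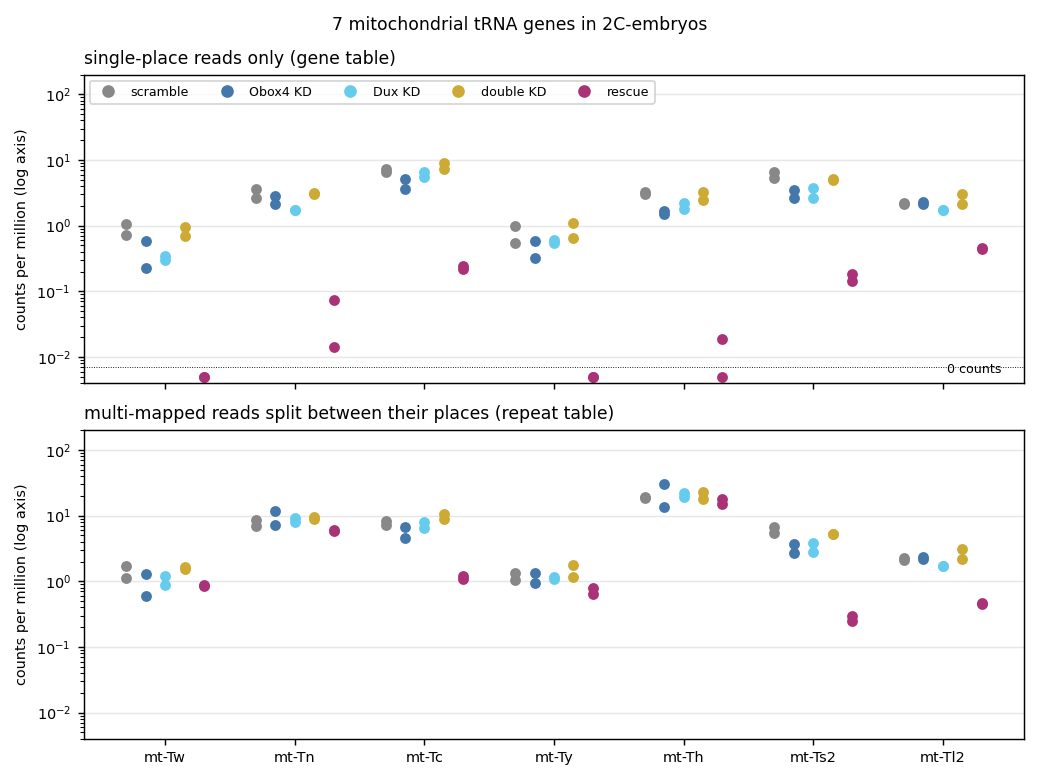
CPM (y axis, log axis) of the 7 tRNA genes (x axis) called lower in rescue against double KD 2C-embryos, with 1 point per library and 2 libraries per group. The upper panel uses reads with a single place and the lower panel splits shared reads, where mt-Tw, mt-Tn, mt-Ty and mt-Th of the rescue libraries return to near the double KD points while mt-Tc, mt-Ts2 and mt-Tl2 stay below them.

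Across the tRNA class, all 17 members tested had a negative log2 fold change in rescue against double KD. Their median was −0.88, with mt-Tw and mt-Ty at their fitted values or at their bounds, beside −0.04 over all genes tested. mt-Ta, which lies between mt-Tw and mt-Tn, had 347 and 262 counts in double KD and 506 and 326 in rescue (log2 fold change −0.21). mt-Tm, the methionine tRNA, came nearest to the threshold among those not called (−0.95, SE 0.23, edgeR adjusted p = 0.00462). mt-Tf, the phenylalanine tRNA, was the least changed (−0.02).

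The protein and rRNA genes moved less in the rescue. mt-Nd6 had 838 and 766 CPM in double KD and 524 and 504 CPM in rescue, below every other 2C library, and its log2 fold change was −0.51 (SE 0.072, edgeR adjusted p = 5.14e-05), short of the fold set for a call. mt-Rnr2 had 60282 and 56865 CPM in double KD and 43482 and 46060 in rescue, again the lowest libraries of the experiment (−0.26, SE 0.043, adjusted p = 0.000286). mt-Rnr1 changed by −0.02 (adjusted p = 0.808). mt-Nd3 had the highest value of the protein class (0.49, adjusted p = 0.243), and 4 of 13 protein genes were positive with a class median of −0.17.

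The single knockdowns changed few members by the size set for a call. In Obox4 KD none of the 32 members tested was called by edgeR, where 0.412% of genes were. Of the 32 members, 10 reached an unadjusted p under 0.05, as did 19.2% of all genes, and DESeq2 called 129 genes with 1 member, mt-Ts2. All 13 protein genes were negative with a median of −0.21, beside 0.00 over all genes, and both rRNAs were positive.

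mt-Co1 had 2588 and 2631 CPM in scramble and 2274 and 2043 CPM in Obox4 KD. Its log2 fold change of −0.34 (SE 0.063, edgeR adjusted p = 0.00416) was the lowest of the protein genes, and mt-Cytb at −0.05 (adjusted p = 0.756) was the highest. mt-Rnr2 had 48807 and 49903 CPM in scramble and 61330 and 57960 in Obox4 KD (0.21, SE 0.043, adjusted p = 0.00807). Neither mt-Co1 nor mt-Rnr2 overlapped between the groups. mt-Rnr1 changed by 0.07 (adjusted p = 0.577).

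Of the 17 tRNA genes tested in Obox4 KD, 8 were positive, with values from −1.19 for mt-Tw (adjusted p = 0.275) to 0.80 for mt-Te (adjusted p = 0.151). Library 1 of this group held 0.0278% of its counts in tRNA genes and library 2 held 0.0149%, the range of scramble being 0.0160% to 0.0166%. Without library 1, 1 of 17 was positive and the median moved from −0.04 to −0.47. Scaling to library totals also turned that median, to 0.03.

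Dux KD lowered Duxf3, the Dux transcript of this annotation, by 1.30 on the log2 scale, and lowered 1 member, where 4.3% of genes were called and 1.05% called lower. That member was mt-Ts2, with 6.53 and 5.39 CPM in scramble and 2.68 and 3.77 CPM in Dux KD (log2 fold change −1.08, SE 0.236, edgeR adjusted p = 0.00374). An unadjusted p under 0.05 was reached by 13 of 32 members and by 31.6% of all genes, and DESeq2 called mt-Ts2 alone among the members. The groups did not overlap for mt-Ts2, and the Obox4 KD libraries lay in the same range, at 3.53 and 2.64 CPM. The call was lost in 2 of the 4 fits that left out 1 library, without scramble library 1 and without Dux KD library 1, and also under scaling to library totals. Over the 4 fits the value ran from −1.34 to −0.81. Duxf3 changed by −1.04 in double KD against scramble and by 1.03 in rescue against double KD (edgeR adjusted p = 0.00556 and 0.00684). The rescue libraries thus held more Dux RNA than the double KD libraries.

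The protein genes in Dux KD were all negative with a median of −0.32, beside 0.04 over all genes, from −0.52 for mt-Atp8 (adjusted p = 0.259) to −0.03 for mt-Co3 (adjusted p = 0.945). mt-Co1 had 2189 and 2159 CPM (−0.44, edgeR adjusted p = 0.00013). Both rRNAs were positive, at 0.05 for mt-Rnr1 and 0.15 for mt-Rnr2 (adjusted p = 0.0243), and 7 of 17 tRNA genes were positive with a median of −0.38.

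In the double KD, where 11.6% of genes were called, edgeR called 0 of the 32 members tested. An unadjusted p under 0.05 was reached by 6 of the 32 members and by 45.2% of all genes, and DESeq2 called 2581 genes with 0 members. The lowest protein gene was mt-Co1, at 2435 and 2307 CPM (−0.38, SE 0.063, adjusted p = 0.000127), and the highest was mt-Nd6, at 838 and 766 CPM against 617 and 599 in scramble (0.16, adjusted p = 0.103). mt-Rnr1 and mt-Rnr2 changed by −0.09 and 0.00. The tRNA genes ran from −0.48 for mt-Ts2 to 0.63 for mt-Te, and 10 of 17 were positive.

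The sign of the small class medians depended on scaling in the double KD. The protein median of −0.19 became 0.05 and the rRNA median of −0.05 became 0.20 when library totals replaced the TMM scaling, while the median of all genes moved from 0.03 to 0.28. As a share of gene counts, the protein class held 1.35% and 1.29% in double KD and 1.29% and 1.27% in scramble.

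The 3 knockdown groups were all set against the same scramble libraries, and the double KD libraries also serve as the base of the rescue comparison. The effect of Obox4 KD with Dux lowered (double KD against Dux KD) was set against that with Dux present (Obox4 KD against scramble) as an interaction in the same fit. None of the members was called, where 0.256% of genes were. Of the 32 members tested, 14 reached an unadjusted p under 0.05, as did 15.9% of all genes, and DESeq2 called 141 genes with 1 member, mt-Ts2. mt-Nd5 had the smallest p, with 2268 and 2164 CPM in scramble, 1924 and 1773 in Obox4 KD, 1992 and 1864 in Dux KD and 2401 and 2293 in double KD. The difference was 0.54 (SE 0.083, edgeR adjusted p = 0.00304). On this CPM scale the single KD libraries lay below scramble and the double KD libraries above it, whereas the fitted value of double KD against scramble, with TMM scaling, was −0.16.

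Across that interaction the protein differences ran from −0.08 for mt-Co3 to 0.55 for mt-Nd4l (adjusted p = 0.574), with 12 of 13 positive. The rRNA differences were −0.21 for mt-Rnr1 and −0.35 for mt-Rnr2, and the tRNA differences ran from −0.87 for mt-Te to 2.49 for mt-Tw (adjusted p = 0.125).

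Genes that the nucleus supplies to the mitochondrion were read as lists in the same fits. In Obox4 KD 2 of the 227 genes tested in the 5 lists (0.881%) were called, both higher, namely Ndufv3 (log2 fold change 1.01), a complex I subunit, and Uqcrc1 (1.22), a complex III subunit. In Dux KD 7 of the 227 (3.08%) were called, all higher, where 4.3% of all genes were called in either direction and 1.05% lower. They were Tefm (1.16), the mitochondrial transcription elongation factor, Pus1 (1.12), which makes pseudouridine in tRNA, Ears2 (1.24), the glutamyl-tRNA synthetase, Ndufv3 (1.39), Uqcrc1 (1.44), Atp5d (1.31) and Mrps10 (1.22).

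In the double KD, 21 of the 227 genes (9.25%) were called, against 11.6% of all genes. Of them, 4 of 19 genes of mitochondrial DNA transcription and replication rose and none fell, with a list median of 0.73 beside 0.03 over all genes. The 3 with the smallest p were Twnk (1.33), the mitochondrial DNA helicase, Tefm (1.66) and Polg2 (1.25), a subunit of the mitochondrial DNA polymerase. Of 35 enzymes that charge or modify mitochondrial tRNA, 7 rose and 1 fell, and Pus1 (1.94), Ears2 (1.38) and Trmt5 (−1.26) led by p. Of 76 tested nuclear subunits of the respiratory chain 4 rose, led by Ndufv3 (1.57), Uqcrc1 (1.98) and Atp5d (2.07), and of 77 tested mitochondrial ribosomal proteins 3 rose and 1 fell (Mrps6 1.56, Mrpl22 1.44, Mrpl24 −1.03).

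Of 20 tested genes that process or degrade mitochondrial RNA, 1 rose in the double KD (Hsd17b10, a subunit of the enzyme that cuts tRNA 5′ ends, 1.42), and the list median was −0.31. In rescue against double KD, 12 of the 227 genes of the 5 lists (5.29%) fell and none rose. Of all genes there, 4.37% were called in either direction and 3.27% lower. Whether the lists differ from all genes was not tested. Tefm fell by 1.17 and Pus1 by 1.12 on the log2 scale, and Lars2 (−1.86) and Hars2 (−1.03), the leucyl- and histidyl-tRNA synthetases, fell with them. Ndufc1 (−1.71), Cox4i1 (−1.08), Cox7b (−1.02), Mrps6 (−1.5), Mrpl43 (−1.45) and Mrps11 (−1.11) were the named others. No gene of the RNA processing list was called there.

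Summed CPM of 2C-embryo marker genes was 783 to 833 in scramble, 647 to 689 in Obox4 KD, 362 to 381 in Dux KD, 216 to 221 in double KD and 334 to 471 in rescue. Maternal markers summed to 1502 to 1640 in double KD and 2275 to 2370 in rescue, and to 2087 to 2310 in the other groups. Morula markers summed to 92.5 to 95.9 in double KD, 77.1 to 78.5 in rescue and 55.9 to 59.0 in scramble, and blood markers to 3.03 to 3.50, 1.69 to 2.43 and 1.5 to 1.8. Their part in the member changes was not tested.

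**Figure D3:**
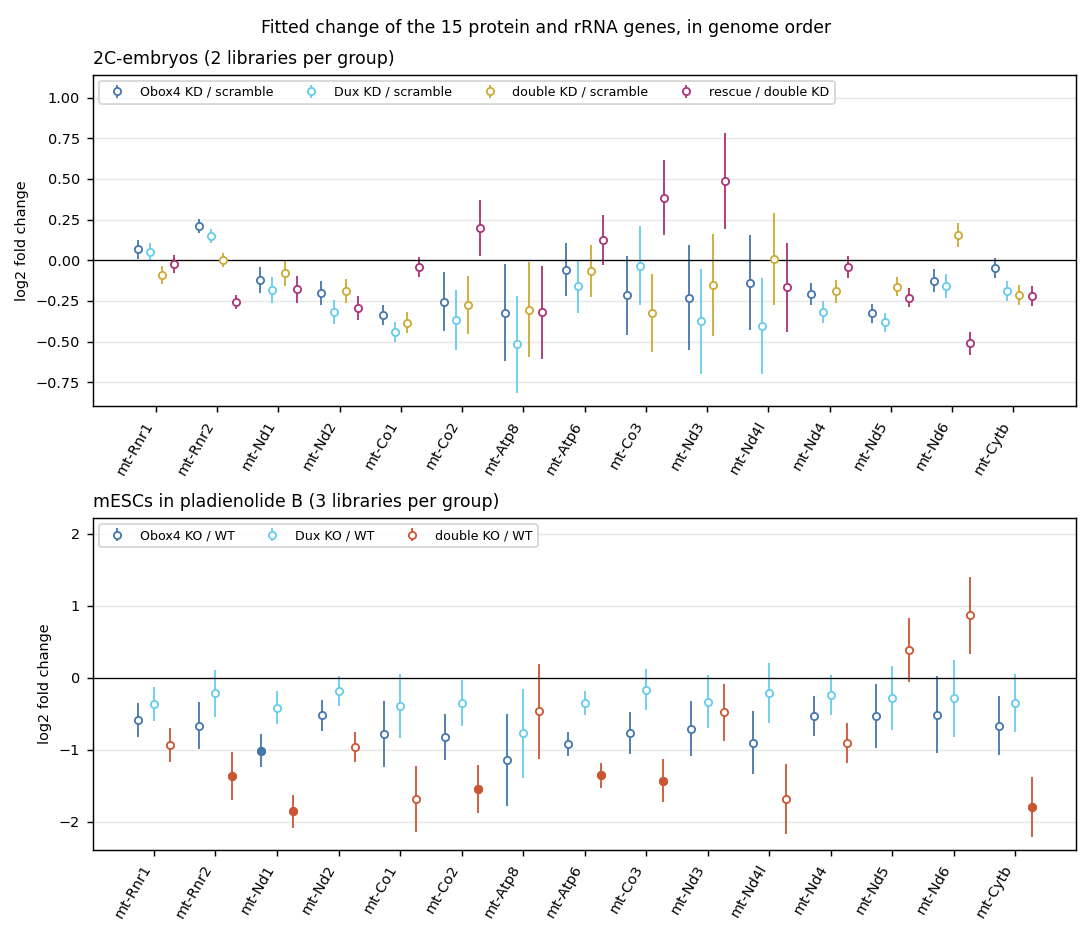
Fitted log2 fold changes (y axis) of the 15 protein and rRNA genes in genome order (x axis) for the 2C-embryo comparisons (upper panel) and the knockouts in PlaB (lower panel). Bars are standard errors and filled points passed the call, which none did in 2C-embryos, while mt-Nd1 did in Obox4 KO and 6 genes did in double KO.

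In morulae, edgeR called no gene of 22142, a background of 0%, and none of the 29 members tested. An unadjusted p under 0.05 was reached by 5 of the 29 members and by 17.8% of all genes, and DESeq2 called 789 genes with 1 member, mt-Tf. All 29 members had negative values in double KD. The class medians were −0.62 for protein, −0.45 for rRNA and −0.75 for tRNA genes, beside 0.02 over all genes, and they became −0.33, −0.14 and −0.46 under library totals, where the median of all genes was 0.32.

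mt-Tf had 16.7 and 19.7 CPM in scramble and 9.27 and 4.78 CPM in double KD, without overlap. mt-Nd1 had 5120 and 4853 CPM against 3959 and 3220, and mt-Nd2 3945 and 3639 against 2689 and 2575. The lowest protein value was −0.90 for mt-Atp8 (SE 0.447, edgeR adjusted p = 0.342) and the highest −0.07 for mt-Co1 (adjusted p = 0.909), whose 4923 CPM in double KD library 2 exceeded both scramble libraries (3652 and 3484).

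mt-Rnr1 had 32229 and 31298 CPM in scramble and 24782 and 36271 in double KD, which overlap, and its value was −0.37. mt-Rnr2 had 74528 and 73393 CPM against 56306 and 70715 (−0.52). The tRNA genes ran from −1.94 for mt-Tc (1.06 and 1.46 CPM against 0.558 and 0.205, adjusted p = 0.281) to −0.15 for mt-Tl1. mt-Tw and mt-Ty were at 0 in all 4 libraries of the gene table, and mt-Tw had 600, 626, 373 and 104 split counts. The scramble morulae also had only 1 and 2 counts of mt-Th and 19 and 13 of mt-Tn. Their mt-Ts2 stood at 0.582 and 0.335 CPM and their mt-Tl2 at 0.839 and 1.09 CPM. Low values of these tRNAs were thus not limited to the rescue embryos.

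The 2 double KD morula libraries differed in markers. Summed CPM of 2C-embryo markers was 4.41 in library 1 and 325 in library 2, against 3.74 and 6.75 in scramble, and that of blood markers was 0.587 and 6.05 against 0.496 and 0.335. Without library 1, the class medians of double KD against scramble were −0.74 for protein, −0.46 for rRNA and −0.90 for tRNA genes. Without library 2 they were −0.65, −0.53 and −0.66 in the same order. mt-Tf changed by −2.45 without library 1 and by −1.13 without library 2. The part of these markers in the result was not tested. Of 76 nuclear respiratory chain genes 3 were positive (median −0.51) and of 77 mitochondrial ribosomal genes 8 (median −0.47).

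In the Dux-KO blastomeres, edgeR called none of 19182 genes for Obox4 Het or KO, a background of 0%, and none of the 36 members tested. For Het, 6 of the 36 members and 2.77% of all genes reached an unadjusted p under 0.05, and for KO 4 of the 36 and 7.24%. DESeq2 called 53 and 247 genes with 0 members. All 36 members had positive values in KO against WT, with medians of 0.51 for protein, 0.13 for rRNA and 1.52 for tRNA genes, beside −0.03 over all genes. Under library totals the rRNA median turned to −0.03 and the others kept their sign.

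The tRNA genes carried the widest spread. mt-Tg, the glycine tRNA, had 20.4 and 23.9 CPM in WT, 152 and 44.6 in Het and 49.1 and 99.6 in KO. mt-Tp had 22.9 and 50.6 CPM in WT, 160 and 44.8 in Het and 61.0 and 127 in KO. mt-Tv, the valine tRNA, had 13.6 and 14.7 CPM in WT, 110 and 19.0 in Het and 35.8 and 31.7 in KO.

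Het library 1 was the highest of the 6 libraries for 21 of the 22 tRNA genes. Both KO libraries lay above both WT libraries for mt-Tg, mt-Tp and mt-Tv, and also for others such as mt-Tm, mt-Tn and mt-Tk. For mt-Tq and mt-Tc the KO and WT libraries overlapped. The share of all genes with such a separation was not counted. The KO values of the tRNA class ran from 0.84 for mt-Tc (SE 2.854, edgeR adjusted p = 0.981) to 2.18 for mt-Ts1 (adjusted p = 0.816). In Het they ran from 0.11 for mt-Tc to 3.49 for mt-Ty (adjusted p = 1), with all 21 positive and a median of 2.15.

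Without Het library 1 the tRNA median of Het against WT was 0.57, with 15 of 21 positive. Without Het library 2 that median was 2.93, with 22 of 22 positive. Without KO library 1 the tRNA median of KO against WT was 1.90, and without KO library 2 it was 1.07, with 22 of 22 positive in each. The protein median of KO against WT was 0.82 without KO library 1 and 0.12 without KO library 2. Fibroblast markers summed to 0 CPM in the WT libraries and 0.708 to 1.39 in Het and 0.123 to 0.347 in KO, and cumulus markers to 4.79 to 8.08, 9.56 to 17.9 and 9.83 to 19.7 in the same order. 2C-embryo markers summed to 249 to 265 in WT, 147 to 205 in Het and 95.5 to 153 in KO, mESC markers to 184 to 261, 369 to 452 and 304 to 358, and maternal markers to 2200 to 2406, 1550 to 1600 and 1907 to 2186. Morula markers summed to 204 in Het library 1 and 72.8 in Het library 2, and to 82.3 to 92.6 in WT and 49.5 to 92.3 in KO. Their part in the tRNA values was not tested.

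**Figure D4:**
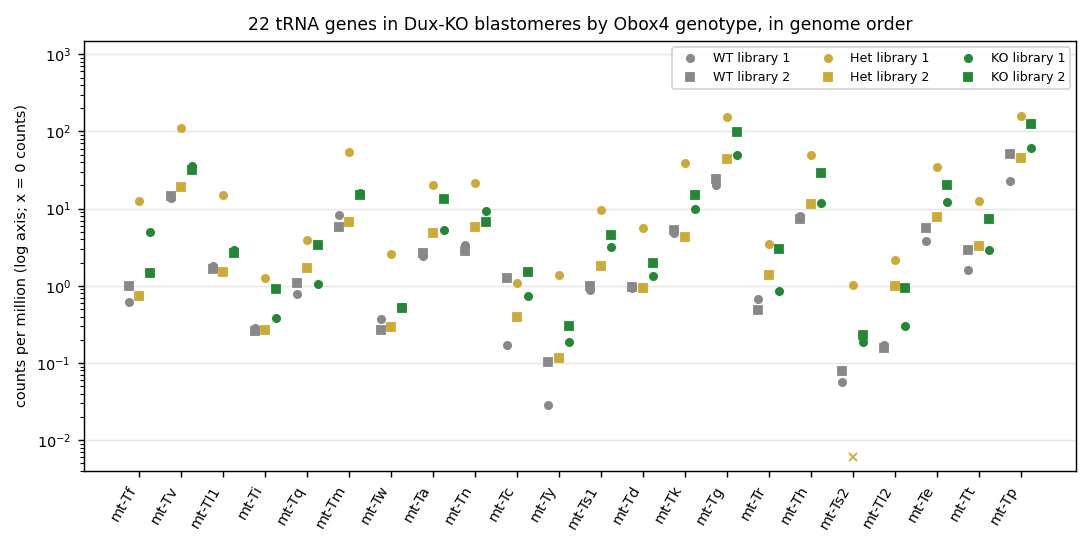
CPM (y axis, log axis) of the 22 tRNA genes in genome order (x axis) in the 6 blastomere libraries, coloured by Obox4 genotype, with crosses for 0 counts. Het library 1 lies highest for 21 of 22 genes, with mt-Tv at 110 against 19.0 in Het library 2.

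The protein genes of the blastomeres ran from 0.25 for mt-Nd3 to 0.84 for mt-Co1 (SE 0.295, edgeR adjusted p = 0.536) in KO. mt-Co1 had 2328 and 2709 CPM in WT and 3107 and 4951 in KO, and in Het 5097 and 3118 (0.73, adjusted p = 1). mt-Nd3 gave the lowest Het value (−0.41). mt-Rnr1 and mt-Rnr2 changed by 0.19 and 0.07 in KO and by −0.01 and −0.02 in Het. None of the genes in the nuclear lists was called in either comparison.

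In mESCs in PlaB the members were lower in every knockout by class median, and most in the double KO. Dux was checked first. Duxf3 fell in the Dux KO and double KO lines (edgeR adjusted p = 1.18e-05 and 1.37e-05), and Obox4 reads were not analysed here. The double KO comparison called 7 of 17 members lower and none higher, where 18% of the 22328 genes tested were called in either direction and 8.79% lower. They were mt-Nd1, mt-Cytb, mt-Co2, mt-Co3, mt-Atp6, mt-Rnr2 and mt-Tp. When only the WT and double KO libraries were fitted, 2 were called (mt-Nd1 and mt-Atp6), where 18.4% of genes were.

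mt-Nd1 had 4968, 5096 and 4491 CPM in WT, 2735, 2634 and 2452 in Obox4 KO, 4052, 3888 and 3827 in Dux KO and 1183, 1960 and 634 in double KO. No 2 genotypes overlapped. The log2 fold change was −1.86 in double KO (SE 0.235, edgeR adjusted p = 5.45e-05) and −1.02 in Obox4 KO (SE 0.23, adjusted p = 0.00642), the only member called in Obox4 KO, where 8.88% of genes were called and 3.96% lower.

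mt-Cytb had 3233, 3334 and 2659 CPM in WT and 786, 1564 and 212 in double KO (−1.79, SE 0.417, edgeR adjusted p = 0.00433). mt-Rnr2 had 17779, 19345 and 19207 CPM in WT and 6701, 11651 and 2447 in double KO (−1.37, SE 0.334, adjusted p = 0.00575). All double KO libraries lay below all WT libraries for both genes, and library 3 was the lowest.

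Of the 6 protein genes wholly inside the chr1 copy, 3 fell. mt-Co2 had 16.7, 19.2 and 16.9 CPM in WT and 6.05, 8.96 and 1.68 in double KO (−1.55, edgeR adjusted p = 0.00238), mt-Co3 changed by −1.43 (adjusted p = 0.00238) and mt-Atp6 by −1.35 (adjusted p = 6.89e-05). mt-Nd4l (−1.68, adjusted p = 0.0143), mt-Nd3 (−0.48, adjusted p = 0.358) and mt-Atp8 (−0.46, adjusted p = 0.603) missed the threshold. With shared reads split, the values of the 3 were −1.40 for mt-Co2, −1.41 for mt-Co3 and −1.55 for mt-Atp6, and 10 members were called where 18.3% of genes were. mt-Tp had 7.88, 7.52 and 6.02 CPM in WT and 2.00, 3.54 and 3.71 in double KO (−1.07, SE 0.267, adjusted p = 0.00655).

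mt-Nd5 and mt-Nd6 were the only members with positive values in the double KO, and 1 library set them. mt-Nd6 had 660, 686 and 765 CPM in WT and 349, 592 and 2215 in double KO (0.87, SE 0.539, edgeR adjusted p = 0.22). mt-Nd5 had 3120, 3384 and 3211 CPM in WT and 1498, 2374 and 6669 in double KO (0.38, adjusted p = 0.52). In double KO library 3, mt-Co1 stood at 406 CPM against 2326 and 3892 in the other two, and mt-Nd6 made up 18.7% of protein counts against 2.89% to 4.93% in the other 11 libraries of the experiment.

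Library 3 of the double KO was also the shallowest, at 14283083 counts. Without it all 17 members were negative and 11 were called lower, where 15.6% of genes were called, with a protein median of −1.23 in place of −1.35, an rRNA median of −0.97 in place of −1.15 and mt-Nd1 at −1.62. Without double KO library 1, 3 were called (mt-Nd1, mt-Atp6 and mt-Co3), where 15.3% of genes were. Without WT library 1 or WT library 2, 4 were called in each case, where 13.8% and 13.4% of genes were. mt-Nd1, mt-Atp6 and mt-Co3 passed in all 6 fits that left out 1 double KO or WT library, mt-Co2 failed in 1, mt-Cytb in 3, mt-Rnr2 in 4 and mt-Tp in 5.

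**Figure D5:**
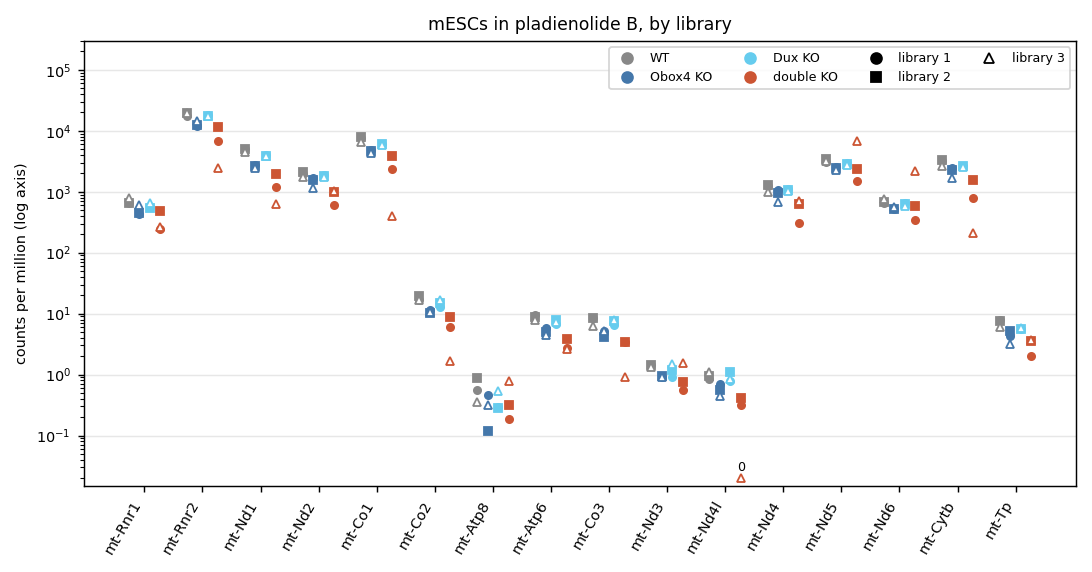
CPM (y axis, log axis) of the 15 protein and rRNA genes in genome order and of mt-Tp (x axis) in the 12 libraries of mESCs in pladienolide B, coloured by genotype with a symbol per library number. Double KO library 3 (open triangles) lies below the other double KO libraries for mt-Co1 (406) and mt-Cytb (212) and above them for mt-Nd5 (6669) and mt-Nd6 (2215).

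In Obox4 KO all 13 protein genes were negative with a median of −0.77, beside 0.02 over all genes, and mt-Atp6 had the smallest adjusted p of those not called (−0.92, SE 0.170, edgeR adjusted p = 0.00195). mt-Rnr1 changed by −0.59 (adjusted p = 0.0915) and mt-Rnr2 by −0.66 (adjusted p = 0.162), with 11762, 12278 and 14291 CPM for mt-Rnr2, below all WT libraries. mt-Tp (−0.89, adjusted p = 0.0231) and mt-Tc (−0.99, adjusted p = 0.258) were the 2 tRNA genes tested. The call of mt-Nd1 was lost in 5 of the 6 fits that left out 1 library, all but the one without Obox4 KO library 3, and over the 6 its value stayed between −1.06 and −0.99. It was also lost under library totals and when only the WT and Obox4 KO libraries were fitted.

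In Dux KO none of the 17 members was called, where 6.32% of genes were. No member reached an unadjusted p under 0.05, where 28.7% of all genes did, and DESeq2 called 1891 genes with 0 members. All 13 protein genes were negative, from −0.77 for mt-Atp8 (edgeR adjusted p = 0.462) to −0.17 for mt-Co3 (adjusted p = 0.771), with a median of −0.33. mt-Rnr1 and mt-Rnr2 changed by −0.37 and −0.22, and mt-Tp and mt-Tc by −0.43 and 0.19.

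The 3 knockouts share the WT libraries. The effect of Obox4 KO in Dux KO cells (double KO against Dux KO) was set against that in WT cells, and no member was called, where 1.25% of genes were. An unadjusted p under 0.05 was reached by 1 of the 17 members and by 25.9% of all genes, and DESeq2 called 1192 genes with 0 members. The differences ran from −0.78 for mt-Cytb (edgeR adjusted p = 0.418) to 1.66 for mt-Nd6 (adjusted p = 0.19) among protein genes, were −0.49 for mt-Rnr2 and 0.02 for mt-Rnr1, and were −0.43 for mt-Tc and 0.26 for mt-Tp. Without double KO library 3 none was called either.

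The markers of cell state moved with these genotypes. Summed CPM of mESC markers was 3060 to 3125 in WT, 1890 to 2011 in Obox4 KO, 2664 to 2674 in Dux KO and 1050 to 1446 in double KO, and that of morula markers was 183 to 186, 697 to 1894, 501 to 517 and 2607 to 3765 in the same order. 2C-embryo markers summed to 772 to 890 in WT, 407 to 749 in Obox4 KO, and at most 0.367 in Dux KO and 0.187 in double KO. Fibroblast markers summed to 15.5 to 15.6 in WT, 22.5 to 23.2 in Obox4 KO and 16.8 to 18.9 in Dux KO, and to 12.6 to 25.8 in double KO, where library 3 was the highest. Blood markers ranged from 0.205 to 0.885. Their part in the lower mitochondrial counts was not tested.

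Few nuclear genes for mitochondria were called in PlaB. Of the 227 genes tested in the 5 lists, 0.441% were called in Obox4 KO, 0% in Dux KO and 2.64% in double KO. The shares of all genes were 8.88%, 6.32% and 18%. Hsd17b10 fell in Obox4 KO (−1.01) and in double KO (−1.06), which share the WT libraries. In double KO, Top1mt (1.20), the mitochondrial topoisomerase, Ndufb7 (1.05) and Atp5e (1.27) rose, and Cox7b (−1.75) and Mrpl1 (−1.02) fell. The medians of the 5 lists in double KO lay between −0.30 and 0.12, against −1.35 for the mitochondrial protein genes.

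Induced Obox4 left no member called in mESCs. At 12 h edgeR called 0 of 23 members tested, where 0.757% of genes were called. An unadjusted p under 0.05 was reached by 2 of the 23 members and by 15.1% of all genes, and DESeq2 called 269 genes with 0 members. At 48 h edgeR called 0 again, where 3.95% of genes were. There 2 of the 23 members and 24.5% of all genes reached an unadjusted p under 0.05, and DESeq2 called 967 genes with 0 members. The 2 time points share the 0 h libraries.

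All 9 protein genes tested were negative at both times, with medians of −0.47 at 12 h and −0.60 at 48 h, beside −0.01 over all genes. mt-Co1 had 6128, 6175 and 7213 CPM at 0 h, 4459, 5057 and 4393 at 12 h and 4878, 4034 and 4414 at 48 h. Every induced library lay below every 0 h library, and the log2 fold change at 48 h was −0.62 (SE 0.141, edgeR adjusted p = 0.0163). mt-Co1 supplied most of the protein share, which was 0.752% ± 0.106 at 0 h, 0.531% ± 0.0477 at 12 h and 0.515% ± 0.0506 at 48 h (SD, n = 3).

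mt-Cytb was the lowest protein gene at both times (−0.90 and −0.84, edgeR adjusted p = 0.282 and 0.204), with 146, 202 and 429 CPM at 0 h, 213, 122 and 87.4 at 12 h and 131, 137 and 189 at 48 h. These ranges overlapped. The highest were mt-Nd5 at 12 h (−0.26, adjusted p = 0.848) and mt-Co3 at 48 h (−0.10, adjusted p = 0.927).

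mt-Rnr2 had 131924, 123892 and 123778 CPM at 0 h, 101384, 132324 and 108341 at 12 h and 123954, 85393 and 99312 at 48 h (−0.17 and −0.37, edgeR adjusted p = 0.818 and 0.348). mt-Rnr1 varied from 7528 to 29808 CPM within the 12 h group alone and changed by 0.14 at both times. The 12 h rRNA median was −0.01, and 0.02 under library totals. Of 12 tRNA genes tested 1 was positive at 12 h and 4 at 48 h, from −1.66 for mt-Th at 48 h (10, 14 and 22 counts at 0 h and 5, 6 and 3 at 48 h, adjusted p = 0.0368) to 0.43 for mt-Tt, and at 12 h from −0.87 for mt-Ts2 to 0.58 for mt-Tt. None of the genes in the 5 nuclear lists was called at either time. Summed CPM of mESC markers was 3125 to 3408 at 0 h, 3141 to 3655 at 12 h and 3450 to 3786 at 48 h. That of 2C-embryo markers was 12.02 to 15.9, 24.3 to 27.3 and 67.4 to 79.5, that of morula markers 93.8 to 100.5, 104.8 to 112.3 and 120.8 to 130.5, and that of fibroblast markers 0.972 to 2.11, 3.26 to 5.83 and 5.68 to 7.25. Their part in the member values was not tested.

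Nuclear genes whose log2(CPM + 1) followed that of the summed protein genes most closely across libraries are given as a description. They were Nudt3 (Pearson r = 0.972), Catip, Kmt5a, Gm22973 and Maco1 (r = 0.955) over the 9 induced mESC libraries, Mef2a (r = 0.961), 2610316D01Rik, Rsrp1, Gm38100 and AC132367.1 (r = 0.917) over the 10 2C libraries, and Cacng8 (r = 0.956), Gm33103, Gm42793, Ppp1r1a and Cdhr1 (r = 0.946) over the 12 PlaB libraries. They were the top 5 of 14333, 14989 and 15208 genes. The libraries share groups, depth and counting, so these values describe these libraries only.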

How the data were processed

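RNA-seq was taken from the deposited tables. The authors trimmed reads with fastp 0.23.2, aligned them to GRCm38.p6 with STAR 2.7.9a and counted them with featureCounts 2.0.1 (2.0.6 per the file headers for blastomeres). The gene tables hold raw counts from which the authors left out multi-mapped reads, except that of blastomeres. That table and the tables of genes and repeats hold expected counts in which the authors split such reads, and they were rounded for the fits. The deposited peak lists give MACS3 fold enrichment as a ratio and −log10 q values.

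Gene symbols were found for 55141 of 55487 identifiers. The fit used edgeR 4.0.16 in R 4.3.3 (quasi-likelihood, filterByExpr, TMM scaling, all groups of an experiment together), with DESeq2 1.42.0 and other settings as alternatives. Percentages are of all gene counts of a library. CPM was computed on library totals with no pseudocount, except a pseudocount of 1 in the likeness measure, which used genes above 1 CPM in most libraries. The scripts were tested on simulated data. Nuclear copies were found with BLAST 2.17.0, and sequences are from the GRCm38.p6 genome. Named genes are every called member, otherwise the highest and lowest of a class, and up to 3 called genes per nuclear list. That the mitochondrial chromosome was taken up, and which gene lists stand beside it, was chosen with earlier results of these data known. Intervals cover counting error only. Replicate numbers are those of the labels.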

Additional observations from a re-analysis of the deposited data

Results flagged for a closer look

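The effect of Obox4 KD with Dux lowered differed from that with Dux present for 6 members at an edgeR adjusted p of at most 0.05 in the interaction test over all genes, where 593 of 23085 genes (2.57%) passed that threshold. The log2 differences were −0.35 for mt-Rnr2, 0.40 for mt-Co1, 0.54 for mt-Nd5, 0.44 for mt-Nd6, 1.11 for mt-Tc and 1.62 for mt-Ts2. Only 2 libraries stood behind each of the 4 groups.

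CUT&RUN peaks on chrM were not used in any comparison above. CUT&RUN frees and sequences the DNA around an antibody-bound protein. Each of the 3 lists for FLAG-tagged OBOX4 in mESCs held 1 chrM peak, which covered 16253, 16262 and 16234 of the 16299 bases. Their fold enrichments were 6.15, 7.72 and 4.63, and their −log10 q values 5641.63, 6031.88 and 3182.05. The lists held 27988, 20620 and 22481 peaks in all.

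The list for FLAG-tagged DUX held 10 chrM peaks of 1844, with fold enrichments of 1.45 to 2.25 and −log10 q values of 11.3 to 61.0. The strongest lay at chrM:15670-16032, where no gene is annotated. None of the 36 histone-mark lists held a chrM peak. The cause of the chrM peaks was not tested.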

How the results depend on the processing

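No called direction was reversed. Under the alternatives, 190 values that answer a comparison stayed near the original and 53 moved, and of the values of named members 193 kept their call while 33 kept their direction but missed the threshold. The causes were not tested.

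The settings named next moved the number of members called by more than 1.5 times. At an adjusted p of at most 0.05 with no minimum fold it was 2 at 48 h of induction, 6 in Obox4 KD, 9 in Dux KD, 4 in double KD, 15 in rescue, 6 in the 2C interaction, 3 in Obox4 KO in PlaB and 12 in double KO, where 12.2%, 5.85%, 19.6%, 37%, 28.2%, 2.57%, 25.8% and 41.3% of all genes passed. With no filter on low counts it was 1 in Obox4 KD, 2 in Dux KD, 1 in the 2C interaction and 2 in morulae. DESeq2 called 1 in Obox4 KD, 1 in the 2C interaction and 1 in morulae, and also 9 in double KO in PlaB. Library totals left 0 in Dux KD and 0 in Obox4 KO in PlaB. Fitting only the groups compared gave 2 in Dux KD, 0 in Obox4 KO in PlaB and 2 in double KO. Leaving the rescue libraries out of the fit, a choice made after seeing the data, gave 1 in Obox4 KD, 2 in Dux KD and 1 in the 2C interaction. The table that splits shared reads gave 4 in rescue, where 5.51% of genes were called.

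Leaving out 1 library at a time gave 0 to 1 members in Obox4 KD, 0 to 1 in Dux KD, 0 to 2 in the 2C interaction, 7 to 8 in rescue, 0 to 6 in morulae, 0 to 3 in Obox4 Het and 0 to 4 in Obox4 KO blastomeres, 0 to 1 in Obox4 KO in PlaB and 3 to 11 in double KO, and 0 throughout in the others. The lone library is then assumed to vary like the other groups. The number of all genes called also changed between these fits, so the counts of members alone do not measure a change particular to the members.

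Mean class shares moved when counts outside chrM were the denominator, to 0.695% for protein and 14.998% for rRNA in induced mESCs, 1.32% and 8.69% in 2C-embryos and 2.79% and 11.4% in morulae. With shared reads split, the protein share was 0.910% in induced mESCs, 1.60% in 2C-embryos, 2.89% in morulae and 2.12% in PlaB, and the tRNA share 0.0282% in 2C-embryos and 0.0382% in morulae.

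Replicate numbers were not taken as pairs in the main fits. Correlations of same-numbered libraries, after group means were removed, were −0.61 to 0.38 in induced mESCs and −0.04 to 0.10 elsewhere. With 2 libraries per group, numbers 1 and 2 give the same value by construction. The wide range in induced mESCs does not settle whether those libraries were paired. With a replicate block, 7 members were called in rescue and 7 in double KO (mt-Co1 in place of mt-Tp), and the block changed no other member call. Over all genes the block called 37 in place of 141 at 12 h, 373 in place of 735 at 48 h, 5 in place of 0 in Obox4 KO blastomeres and 183 in place of 278 in the PlaB interaction.

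Other settings moved the count of all genes called by more than 1.5 times as well. With no filter it was 255 at 12 h, 207 in place of 95 in Obox4 KD, 236 in place of 59 in the 2C interaction, 1281 in place of 0 in morulae, 11 and 93 in place of 0 in blastomeres and 737 in the PlaB interaction. DESeq2 called 269 at 12 h, 141 in the 2C interaction, 789 in morulae, 53 and 247 in blastomeres and 1192 in the PlaB interaction. Fitting only 2 groups gave 68 at 12 h and 2501 in place of 1412 in Dux KO, and library totals gave 176 in the PlaB interaction. Without the minimum fold, at an adjusted p of at most 0.05, counts of all genes were 610 at 12 h, 2266 at 48 h, 1350 in Obox4 KD, 4535 in Dux KD, 8537 in double KD, 6520 in rescue, 593 in the 2C interaction, 0 in morulae and Obox4 Het, 5 in Obox4 KO blastomeres, 5758 in Obox4 KO, 3700 in Dux KO and 9228 in double KO in PlaB, and 1680 in its interaction. A library in PlaB held 55 to 305 tRNA counts and one of induced mESCs 197 to 606, which limits the precision of those tRNA values.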
